A study of Camelina sativa with 159 samples.

Results

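The genes described here are the 35839 gene models of *Camelina sativa* (camelina, an oilseed of the mustard family) whose IDs place them on the 8 chromosomes Csa02, Csa05, Csa09, Csa12, Csa13, Csa15, Csa17 and Csa20. They were chosen by the chromosome number in the ID alone, with no measured value, and made up 37.9% of the 94495 gene models counted. They stand for 33891 loci, of which 1828 were counted as several transcript models, and their number per chromosome ran from 4003 on Csa13 to 5287 on Csa17. The working label of the set is subgenome 3.

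Camelina is an allohexaploid: related diploid genomes came together in one nucleus, so that most genes are present as closely related copies called homoeologues, one per subgenome. A subgenome can be dominant, which means that its copies are on average transcribed more than their homoeologues, and accessions can differ in which copy is dominant. In *Arabidopsis*, a relative of camelina, the regulators of flowering time include transcription factors of the SPL, MADS-box and AP2 families.

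RNA sequencing had been carried out on fully expanded true leaves of young seedlings from 48 accessions. An accession's flowering time was its number of days to 50% flowering as given in the labels. Of the 158 libraries, 11 came from 4 accessions that are called late. The other 44 accessions flowered at 43 to 47.9 days and are called early. Late accessions are given below in the order CN113662 (52 days), CN113692 (55 days), CN113691 (59.4 days) and CN113660 (61.9 days). No treatment, mutant or transgene is given in the labels, and nothing in the labels says whether the libraries of an accession came from separate plants. With leaves taken whole, fewer cells of a type and less RNA per cell cannot be told apart. The leaf marker Csa06g036860.1, a chlorophyll a/b-binding protein gene outside the set, lay at 1844, 1372.7, 2035 and 2043 CPM (read counts scaled to the total of the library) in the late accessions and between 727 and 3015 CPM in the early ones.

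Whether the label fits all 8 chromosomes was checked on the IDs, since locus numbers were spaced in steps of 10. The share of the possible ID numbers in use was 46.4 to 50.8% on 7 of the 8 chromosomes, 66.7% on Csa13 and 62.1 to 79.7% on the 12 other chromosomes. By this measure Csa13 stood with the chromosomes outside the set. The set is therefore called by its rule, the 8 chromosomes. The difference in read share and the share of members called are also given for the 31836 gene models without Csa13.

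Library totals ran from 167 to 15246389 counts (median 4310560), and 10 early libraries of 7 accessions fell below 200000 counts. All 11 late libraries carried a sample code of the series Cs, to which 52 early libraries also belonged, while 24 early libraries were of the series S0013 and 71 of S001C. Code series and late flowering are thus partly confounded, and values within the series Cs are given where they changed a call.

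Before any comparison, each of the 148 libraries of at least 200000 counts was matched to its closest library over the 260 members that varied most between early accessions (SD of log2 CPM above 1 at a mean of at least 5 CPM). For 24 libraries the closest one was of another accession, and for the rest it was of the same accession. The 24 included 2 of the 11 late libraries, both of CN113662: Cs040 was closest to a library of early CN113672, and Cs147 was closest to library S001C2D of CN113672. Some single genes showed the same pairing. Csa12g026530.2 lay at 32.3 and 21.3 CPM in libraries Cs035 and Cs147 of CN113662 but at 1.09 CPM in Cs040, and it lay at 38 CPM in S001C2D of CN113672 but at 0.556 to 1.27 CPM in the other libraries of that accession. Csa05g025680.1 showed the reverse, with 0.302 and 0.442 CPM in Cs035 and Cs147, 7.09 CPM in Cs040, 0 in S001C2D and 6.48 to 10.6 CPM in the other libraries of CN113672. For both genes Cs040 therefore had the level of early accessions and S001C2D the level of late ones. Not every gene did. For Csa09g070470.1 S001C2D was low (0.355 CPM, beside 2.54 to 3.61 CPM in the other libraries of CN113672). Cs040, however, lay at 1.09 CPM, near Cs035 (1.21 CPM). For Csa05g014000.1 Cs040 (4.91 CPM) lay between Cs035 (0.905 CPM) and Cs147 (5.45 CPM). The libraries were kept under their labels, and results that rest on them are given with and without this pair.

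Whole chromosomes also stood apart in single libraries. In each of the 148 libraries the median log2 deviation of a chromosome's genes from the early median was computed. In library S001C56 of early CN101986, Csa02 lay at −0.53, which is 0.691 of the early level. There 94.7% of 1187 gene models and 41 of 42 blocks along the chromosome were below the early median, and Csa02 took 2.86% of reads, against 3.96% and 4.10% in the other libraries of CN101986. On the other 7 chromosomes of the set no library lay beyond 0.2 on the log2 scale. Outside the set the same was seen in library S001C60 of CN113742 (Csa04, −0.44), Cs065 of CN113757 (Csa18, −0.31) and S001362 of CN113682 (Csa07, 0.65, and Csa14, 0.32). What underlies these shifts was not tested.

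**Figure D1:**
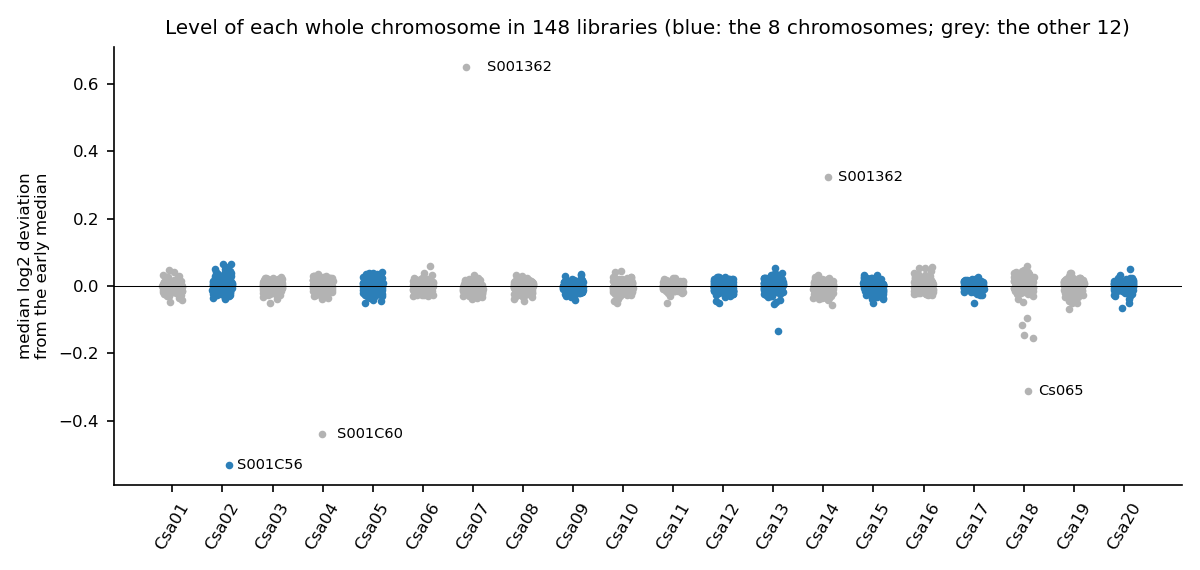
Level of each chromosome (x axis; the 8 chromosomes in blue, the other 12 in grey) in each of 148 libraries, as the median log2 deviation of its genes from the early median (y axis; 1 point per library). Almost all points lie close to 0, and library S001C56 of CN101986 stands at −0.53 on Csa02.

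The 8 chromosomes took 40.3% of all reads with 37.9% of the gene models. That is 8053 reads per gene model, beside 7535 on Csa04, Csa07, Csa08, Csa11, Csa14 and Csa19, 7890 on Csa01, Csa03, Csa06, Csa10, Csa16 and Csa18, and 1817 on unplaced scaffolds. Within the set the range was wide, from 7118 reads per gene model on Csa15 and 7373 on Csa02 to 8557 on Csa12 and 9286 on Csa05. Gene length was not used, so these numbers describe reads and not molecules. Reads of near-identical homoeologues may have been divided between copies by the counting.

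A small number of genes carried much of this. Csa05g079910.1 alone held 1.17% of the reads of the set, with an early median of 4424 CPM, and the 10 gene models with the most reads held 5.75%, the top 100 held 22.2% and the top 1000 held 52.3%. Of those 10, Csa12g003430.1 was called lower in late accessions: it lay at 1291, 1068, 1178 and 1118 CPM there and at 1205 to 1707 CPM (median 1375) in early ones, a log2 fold change of −0.26 (SE 0.07, edgeR adjusted p = 0.0088). CN113662 alone lay inside the early range for it. Csa09g095470.1 had levels of 1374, 669, 1524 and 682 CPM, so that CN113692 and CN113660 lay below the early range of 796 to 2116 CPM while the others lay within it (log2 fold change −0.39, SE 0.17, adjusted p = 0.12). Of the 10, only Csa12g003430.1 was called.

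Over accessions the share was nearly constant. It was 40.34 ± 0.17% (SD, n = 44) in early accessions, from 39.88% in CN113698 to 40.62% in CAM276. In late accessions it was 40.36%, 41.06%, 40.20% and 40.58%. CN113692 alone lay above the early range. The late mean was higher by 0.215 percentage points (two-sided exact permutation test over accessions, p = 0.045), a difference that was 0.096 points without Csa13 (p = 0.31) and 0.044 points without CN113692 (p = 0.67). CN113692 had 2 libraries and, with 4968195 counts, the smallest total of any accession.

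**Figure D2:**
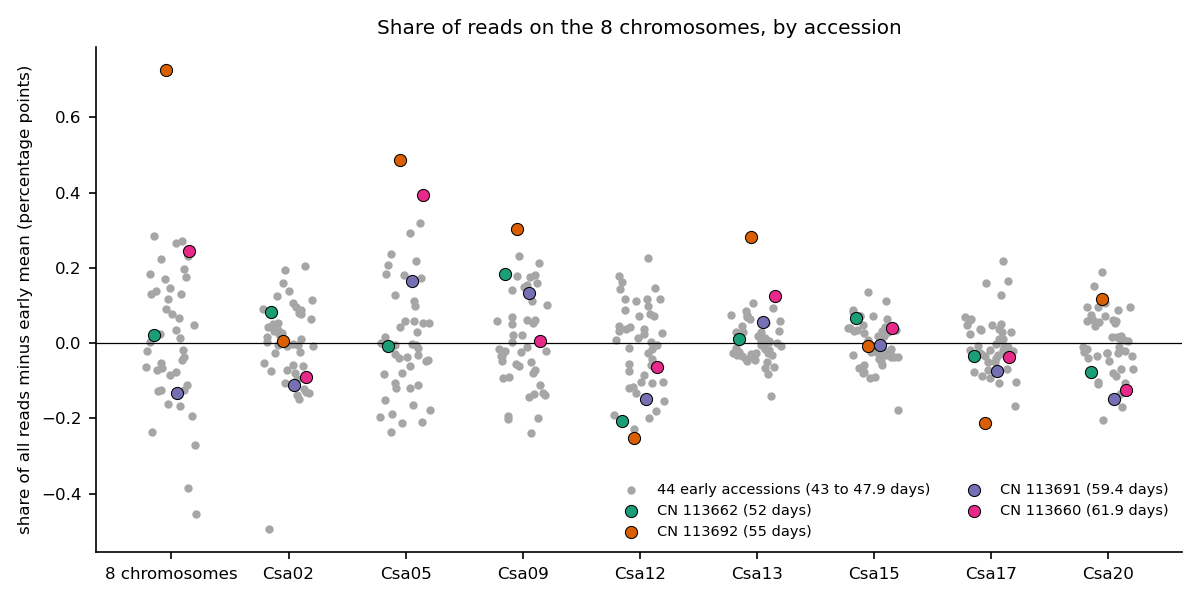
Share of all reads minus the early mean, in percentage points (y axis), for the 8 chromosomes together and for each of them (x axis), 1 point per accession, with 44 early accessions in grey and the 4 late ones in colour. CN113692 lies highest for the 8 chromosomes together, on Csa05, Csa09 and Csa13, and all 4 late accessions lie below the early mean on Csa12.

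Single chromosomes differed between the groups in opposite directions. On Csa05 the share was 6.07 ± 0.14% in early accessions and 6.07%, 6.56%, 6.24% and 6.47% in late ones, a difference of 0.26 points (exact permutation test, p adjusted over the 8 chromosomes = 0.010). CN113692 and CN113660 lay above the early range there. The difference was 0.161 points within the series Cs (unadjusted p = 0.16) and 0.157 points without the 100 gene models with the most reads (unadjusted p = 0.042). On Csa13 the share was 4.32 ± 0.05% in early accessions and 4.33%, 4.61%, 4.38% and 4.45% in late ones, a difference of 0.119 points (adjusted p = 0.010) that was 0.171 points within the series Cs and 0.064 points without CN113692 (unadjusted p = 0.046). On Csa12 it fell from 5.09 ± 0.11% to 4.89%, 4.84%, 4.94% and 5.03%, a difference of −0.167 points (adjusted p = 0.011). It was −0.22 points within the series Cs and −0.080 points without the 100 gene models with the most reads (unadjusted p = 0.011). CN113692 alone lay below the early range on Csa12.

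Csa09 rose by 0.157 points (early 6.16 ± 0.12%, late 6.34%, 6.46%, 6.29% and 6.16%, adjusted p = 0.033), and by 0.107 points without CN113692 (unadjusted p = 0.15). The differences on the remaining chromosomes did not pass: −0.089 points on Csa17 (adjusted p = 0.051), −0.059 on Csa20 (0.27), −0.029 on Csa02 (0.60) and 0.024 on Csa15 (0.51). Without CN113692 the difference was −0.049 points on Csa17 (unadjusted p = 0.26) and −0.117 points on Csa20 (unadjusted p = 0.020). The early range of Csa02 depended on the library with the low chromosome. With it the lowest early share was 3.68% in CN101986 and the early SD 0.118, and without it the lowest was 4.03% in CN113690 and the SD 0.0924.

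A gene model was called expressed in an accession when its normalised read count was above 3 in every library of at least 200000 counts. Of the 35839 members, 10581 (29.5%) were expressed in all 48 accessions, 19974 (55.7%) in at least 1, and 6763 (18.9%) had no read in any library. On the 12 chromosomes outside the set, the percentages expressed in all 48 were 29.3% and 30.5% in the groups of 6. The share of members expressed was 45.6 ± 1.63% in early accessions, from 39.3% in CN113754 to 48.1% in CN113716. In late accessions it was 45.9%, 44.4%, 46.5% and 46.5%, inside that range, and the difference of 0.233 points did not pass (exact permutation test, p = 0.77). Since every library had to pass, the share also depends on the number and depth of an accession's libraries. CN113754 had 5 libraries, of which S001C29 and S001C32 had 596096 and 504269 counts. The libraries of CN113716 used here had 9232984 and 7175439 counts. Within the series Cs the difference between late and early accessions was −2.68 points (exact permutation test, p = 0.018). Most early accessions of that series had a single library in it, while late ones had 2 or 3. That difference therefore cannot be separated from library number. The sign also turned when accessions were thinned to one total of 4968195 counts and at least 5 reads were required (−0.010 points, p = 0.97). The early range was then 47.9 to 50.6%. By chromosome the early mean ran from 43.5% on Csa05 to 48.2% on Csa13. Csa05 thus had the smallest share of genes expressed and the most reads per gene model of the 8.

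Of all expressed gene models, 38.7% lay on the 8 chromosomes in early accessions (SD 0.0654, n = 44), and the late values of 38.7%, 38.8%, 38.7% and 38.7% lay within the early range of 38.6 to 38.9%. Members that were expressed in every late and no early accession, or the converse, numbered 0 by this definition.

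The spread over genotypes was close to that of the rest of the genome. For the 17697 members with an early mean of at least 1 CPM, the median over genes of the SD of log2(CPM + 0.5) over the 44 early accessions was 0.277, beside 0.279 for 28013 other gene models. An SD above 1 was found for 470 members (2.66%), beside 2.26% of the others. By chromosome this share ran from 2.07% on Csa13 to 3.36% on Csa12. These are descriptions of gene groups, which have no replicates of their own.

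Csa12g049840.1 had the largest spread (SD 3.18), with 0 to 276 CPM in early accessions (median 75.6) and 176, 72.5, 146.9 and 78 CPM in late ones. Its late values lay well inside the early range. Csa20g079410.1 (SD 2.67) lay between 0 and 202 CPM in early accessions and at 96.4, 69.3, 71.7 and 0.0696 CPM in late ones, so that one late accession was near 0 and the others near the early median of 67.3 CPM. Csa02g062070.1 ran from 1.05 to 375 CPM in early accessions (median 6.55), with CN113672 highest, and lay at 369, 15, 59.3 and 340 CPM in late ones. None of these 3 genes was called between the groups (edgeR adjusted p = 0.84, 0.96 and 0.325). At the other end, Csa09g071360.1 had an SD of 0.0836, with 113.7 to 148 CPM in early accessions and 122.3, 113.5, 120 and 108.2 CPM in late ones. Its log2 fold change of −0.17 (SE 0.05) was called at adjusted p = 0.027 although it is small, and the call was lost under at least 1 alternative (highest adjusted p = 0.22).

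Late accessions departed from the early median at more genes than most early ones. Among the 10871 members with an early median of at least 5 CPM, 5.96%, 7.66%, 4.54% and 6.73% lay at least 2-fold from it in late accessions. In early accessions this share was 2.11 ± 1.52%, from 0.239% in CN101986 to 6.52% in CN113672. CN113692 and CN113660 lay above the early range. The late mean was higher by 4.11 points, and by 4.29 points for gene models outside the set, so the difference was not a feature of the 8 chromosomes. The early median was taken from early accessions, which places them nearer to it by construction. It stayed the reference under every split of an exact permutation test (p = 8.2e-05), so that p-value cannot decide whether the groups differ. Libraries Cs040 of CN113662 and S001C2D of CN113672 were kept in these shares.

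Late accessions were next compared with early ones gene by gene, with edgeR's quasi-likelihood test on counts summed per accession and adjustment over all 52307 gene models tested. Of the 35839 members, 20171 had enough counts to be tested. Among these 1206 (5.98%) were called higher in late accessions and 1718 (8.52%) lower at an adjusted p of 0.05, beside 6.0% higher and 8.28% lower over all gene models tested. In either direction the share was 14.5% on the 8 chromosomes and 14.3% over all. The share called on the 8 chromosomes was thus at the background. By chromosome it ran from 13.3% on Csa13 to 15.3% on Csa09, and without Csa13 it was 14.7%.

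Most of the changes were small. The median log2 fold change was 0.74 for members called higher and −0.62 for those called lower, and 409 and 411 members were called with a change of at least 2-fold. With the series Cs alone 632 members were called higher and 669 lower, and without CN113692 the counts were 589 and 886. Without CN113660 they were 754 and 917, and without CN113691 875 and 1128. In every fit that left out 1 late accession, 240 of the 1206 and 506 of the 1718 were called, and 182 and 357 of these also within the series Cs. Without the pair of libraries Cs040 and S001C2D, 1300 members were called higher and 1819 lower, and 1145 and 1632 of these had been called with them.

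The late accessions did not contribute alike. CN113692 lay above the early range at 1625 of the 20171 tested members and below it at 2411. For CN113660 the counts were 1253 and 1605, for CN113691 674 and 1149, and for CN113662 850 and 837. Over all 52307 gene models tested they were, in the same order, 4215 and 6100, 3276 and 4020, 1893 and 3004, and 2226 and 2243. As shares, the counts of members were close to these. CN113692 also had the lowest depth of the 4. All 4 lay on the same side outside the range of the 44 early accessions for 29 members above it and 82 below it. Over all gene models tested the counts were 67 and 208, together 0.526%, a share close to that of the members. Without Cs040 and S001C2D, 41 members lay above it, those below it also grew in number, and the share over all gene models tested was 0.695%.

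The 10 largest rises among called members were of genes with early medians of at most 2.01 CPM, and Csa13g011890.1 led. It lay at 9.11, 39.6, 4.57 and 2.64 CPM in late accessions and at 0 to 1.13 CPM (median 0.0814) in early ones. The groups did not overlap (log2 fold change 6.28, SE 0.43, edgeR adjusted p = 1.1e-15). Within CN113662 its libraries read 30.2, 3.09 and 0.273 CPM, the last in Cs040, and the highest early accession was CN113672, where S001C2D had 3.20 CPM and the others 0 to 0.278 CPM. Without these libraries the log2 fold change was 6.59 (adjusted p = 2.8e-18).

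Csa17g049910.1 rose to 1.05, 4.99, 9.59 and 14.6 CPM from 0 to 0.963 CPM in early accessions (median 0.404), a log2 fold change of 4.14 (SE 0.27, adjusted p = 3.6e-16). Csa15g046980.1 lay at 2.39, 10.8, 3.50 and 10.9 CPM against 0.111 to 2.08 CPM (median 0.626), a log2 fold change of 3.35 (SE 0.23, adjusted p = 9.7e-16). For neither gene did the groups overlap, although CN113662 was close to the early range in both. Csa12g026530.2 lay at 19.1, 42.7, 44.4 and 6.26 CPM against 0.369 to 13.2 CPM (median 1.09). It overlapped through CN113672 only, and without Cs040 and S001C2D the highest early accession was at 2.02 CPM and the log2 fold change went from 4.35 to 4.78 (adjusted p = 1.1e-24).

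A neighbouring pair rose on Csa09. Csa09g075790.1 lay at 4.71, 244, 15.6 and 125.1 CPM against 0 to 41.2 CPM in early accessions (median 1.63), and Csa09g075780.1 at 3.36, 94.1, 7.61 and 24.3 CPM against 0 to 15.4 CPM (median 2.01). In both, CN113692 was highest, CN113660 next, and both lay above the early range, whereas CN113662 and CN113691 lay inside it. The log2 fold changes were 4.42 (SE 0.67, adjusted p = 1.0e-05) and 3.44 (SE 0.62, adjusted p = 0.00015), and the call of Csa09g075780.1 was lost without CN113692 (adjusted p = 0.092). Csa02g005560.1 had the same order, at 3.96, 80.5, 5.40 and 36.4 CPM against 0.274 to 7.96 CPM (median 0.993; log2 fold change 4.41, SE 0.39, adjusted p = 1.3e-11). The IDs, the paper and the reference table used here give no name or function for any of these genes.

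The remaining rises among the 10 were of low counts. Csa20g015600.1 lay at 2.17, 0.799, 7.15 and 5.70 CPM against 0 to 1.66 CPM in early accessions (log2 fold change 4.70, SE 0.47, adjusted p = 5.0e-10), with CN113692 inside the early range. Without Cs040 and S001C2D the highest early accession was at 0.461 CPM, and the groups did not overlap. The log2 fold change was then 5.18 (edgeR adjusted p = 9.7e-15). Csa05g022870.1 lay at 1.87, 9.19, 0.381 and 5.63 CPM against 0 to 3.02 CPM, and Csa05g026830.1 at 1.05, 1.40, 2.21 and 0.904 CPM against 0 to 0.830 CPM. Both were called by edgeR (log2 fold changes 5.58 and 4.28, adjusted p = 4.7e-07 and 3.7e-05) and not by DESeq2 (adjusted p = 0.39 and 0.31). CN113672 was the highest early accession for 5 of the 10 rises.

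Of the 10 largest falls, Csa05g025680.1 had the highest early median, and its groups did not overlap. It lay at 2.24, 0.2, 0.304 and 0.765 CPM in late accessions and at 5.34 to 15.8 CPM (median 11.1) in early ones, a log2 fold change of −3.50 (SE 0.30, adjusted p = 5.3e-12). The 2.24 CPM of CN113662 came mainly from Cs040, and without the pair of libraries that accession was at 0.402 CPM and the log2 fold change −4.57.

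Csa05g085770.1, Csa15g024280.1 and Csa20g038380.1 had no read in any late accession. Against a floor of 3 counts over the late group they were at least 15-fold, 11.6-fold and 4.45-fold lower there. Csa05g085770.1 had 633 early reads, lay between 0.0573 and 2.92 CPM in early accessions, and did not overlap (adjusted p = 0.0058). Csa15g024280.1 lay between 0 and 2.25 CPM (adjusted p = 0.017, highest adjusted p over alternatives 0.063), and Csa20g038380.1 between 0 and 1.13 CPM (adjusted p = 0.037, highest 0.11). Early accessions at 0 overlapped with the late ones for the last pair of genes.

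Csa17g083100.1, Csa12g003940.1, Csa15g031020.1 and Csa12g086700.1 shared a pattern within the late group. Their early medians were 4.30, 3, 3.59 and 5.25 CPM, with some early accessions at 0. In CN113662 they lay at 0.971, 0.747, 0.747 and 1.12 CPM, and in the other late accessions between 0 and 0.152 CPM. Without Cs040 and S001C2D the values of CN113662 were 0, 0.100, 0 and 0 CPM, so nearly all of its reads were from Cs040. With the pair in, the log2 fold changes were −3.76, −3.70, −3.85 and −3.47 (adjusted p = 0.0070, 0.0014, 0.025 and 0.032). Without it Csa17g083100.1 had no late read (adjusted p = 0.00052), and the log2 fold changes of the others were −6.50, −6.79 and −5.50 (adjusted p = 4.9e-05, 0.0057 and 0.0081). Csa02g044720.1 lay at 0 in the late accessions except CN113691 (0.0761 CPM), against 0 to 2.60 CPM in early ones (adjusted p = 0.0086). Csa05g020730.1 lay at 0.299, 0.599, 0.685 and 0.417 CPM against 0.237 to 49.5 CPM, and its call (adjusted p = 0.047) was lost under several alternatives, with a highest adjusted p of 0.13.

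**Figure D3:**
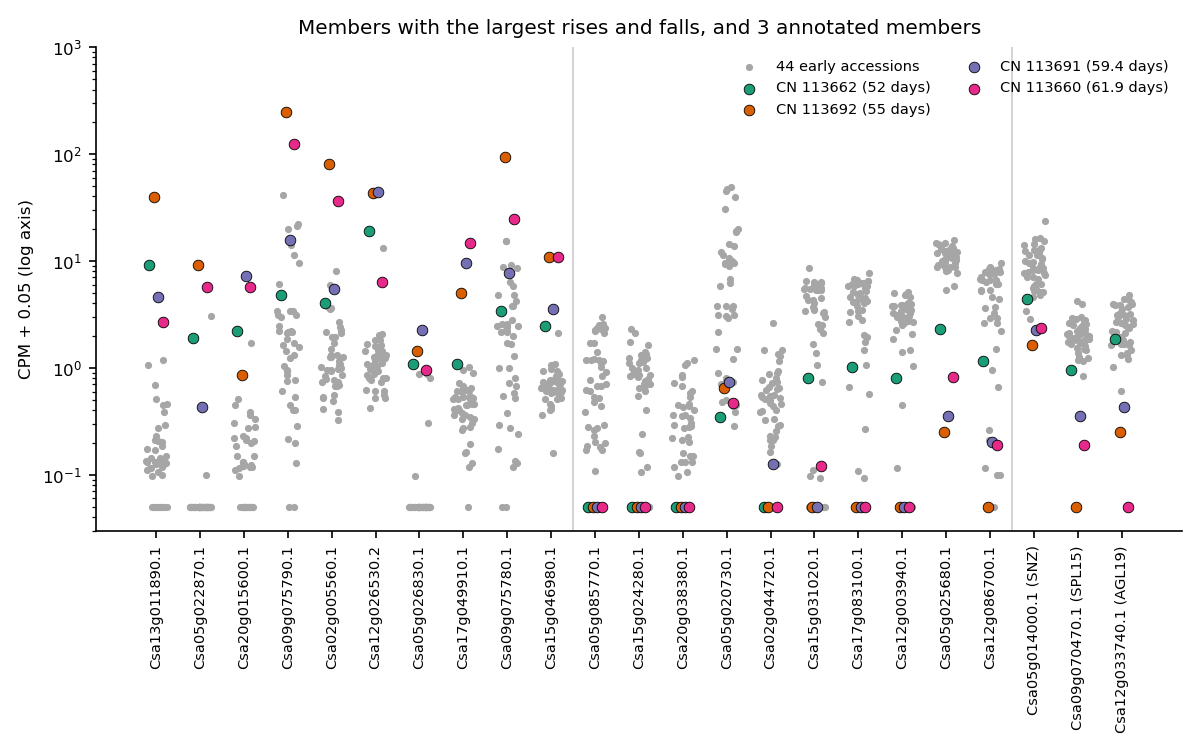
CPM + 0.05 on a log axis (y) of the 10 members with the largest rises, the 10 with the largest falls and 3 annotated members (x), 1 point per accession, with 44 early accessions in grey and the 4 late ones in colour. Csa13g011890.1, Csa17g049910.1, Csa15g046980.1 and Csa05g025680.1 show groups that do not overlap.

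Among the members that the study annotates by ID, copies of 3 regulators of flowering were called lower in late leaves, and a copy of another was not called. The study reports higher expression of a copy of the floral repressor FLC in later-flowering accessions, on Csa13 in some and on Csa20 in others. Its text links no ID to these copies, so they could not be examined here. Csa09g070470.1, a copy of SPL15, whose *Arabidopsis* counterpart promotes flowering at the shoot tip, lay at 0.896, 0, 0.304 and 0.139 CPM against 0.788 to 4.13 CPM in early accessions (median 1.91). CN113662 was just inside the early range and the others below it (log2 fold change −2.37, SE 0.37, edgeR adjusted p = 1.9e-05). Csa05g014000.1, a copy of the AP2-like floral repressor SNZ, lay at 4.33, 1.60, 2.21 and 2.30 CPM against 2.82 to 23.8 CPM (median 8.55), a log2 fold change of −1.78 (SE 0.39, adjusted p = 0.0015), with CN113662 inside the early range and the others below it. Csa12g033740.1, a copy of the MADS-box gene AGL19, which promotes flowering in *Arabidopsis*, lay at 1.79, 0.2, 0.381 and 0 CPM against 0.552 to 4.77 CPM (median 2.33). It too had CN113662 inside the early range and the others below it, and it was called lower (log2 fold change −1.96, SE 0.48, adjusted p = 0.0048), though not within the series Cs (adjusted p = 0.056). All 3 belong to a co-expression module that the study had chosen for its relation to flowering time in these samples, so their direction is no independent evidence.

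The copy of SPL4, Csa17g093410.1, lay at 3.14, 4, 1.52 and 1.11 CPM against 0.965 to 7.21 CPM and was not called (log2 fold change −0.50, SE 0.37, adjusted p = 0.385). Csa02g072860.1 and Csa12g001280.1, members of homoeologous triads shown by the study, were not called either (log2 fold changes 0.37 and 0.37, adjusted p = 0.59 and 0.071). Neither were Csa09g081410.1 (nucleotide-sugar transporter), Csa09g081420.1 (12-oxophytodienoate reductase), Csa20g025780.1, Csa20g025790.1 (AUG7, a subunit of the microtubule-nucleating augmin complex), Csa20g025800.1 (phosphate transporter), Csa20g025810.1 (ASG1), Csa20g036360.1 (EMB1211) and Csa20g036370.1 (HD2B, a histone deacetylase), with adjusted p from 0.057 for Csa20g025800.1 to 0.99 for Csa09g081410.1. Without Cs040 and S001C2D, Csa20g025800.1 and Csa20g025790.1 were called lower (log2 fold changes −0.44 and −0.45, adjusted p = 0.031 and 0.036). Of these, Csa09g081420.1 varied most within the late group, at 121.3, 94.3, 27.3 and 17.3 CPM, with CN113691 and CN113660 below the early range of 32.8 to 189 CPM. Transcript models Csa09g081430.1, Csa09g081430.2 and Csa20g036360.2 had too few reads to be tested.

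The co-expression module with SPL15, SNZ and AGL19 held 58 members on the 8 chromosomes. Of these, 53 were called lower in late accessions and the other 5 were not called, with a median log2 fold change of −1.45, beside a median of −0.01 over all gene models tested. In 11 of them the groups did not overlap. By chromosome, all members were called on Csa02 (8), Csa05 (9), Csa09 (15), Csa13 (3), Csa17 (5) and Csa20 (4), while it was 4 of 8 on Csa12 and 5 of 6 on Csa15. The module was chosen on these accessions and their flowering times, so its direction is no independent evidence.

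To follow the changes along the chromosomes, IDs were divided into 659 blocks of 1000 ID units, of which 493 held at least 10 tested gene models. The median block had 14.3% of its tested members called, and the 10th and 90th percentiles were 6.25% and 22.7%. In 19 blocks no member was called at the adjusted threshold. The block with the most calls, by number and by percent, lay on Csa09 from ID number 97000 to 97999, where 28 of 61 tested gene models (45.9%) were called, 26 of them lower, with a median log2 fold change of −0.67. Blocks with few tested gene models came near it in percent, such as 5 of 12 (41.7%) from 45000 on Csa17 and 7 of 19 (36.8%) from 22000 on Csa05. With blocks of 500 ID units the highest percent was 61.5% (8 of 13) from 91000 on Csa05. The neighbouring blocks starting at 95000, 96000 and 98000 had median log2 fold changes of −0.31, −0.33 and −0.46.

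**Figure D4:**
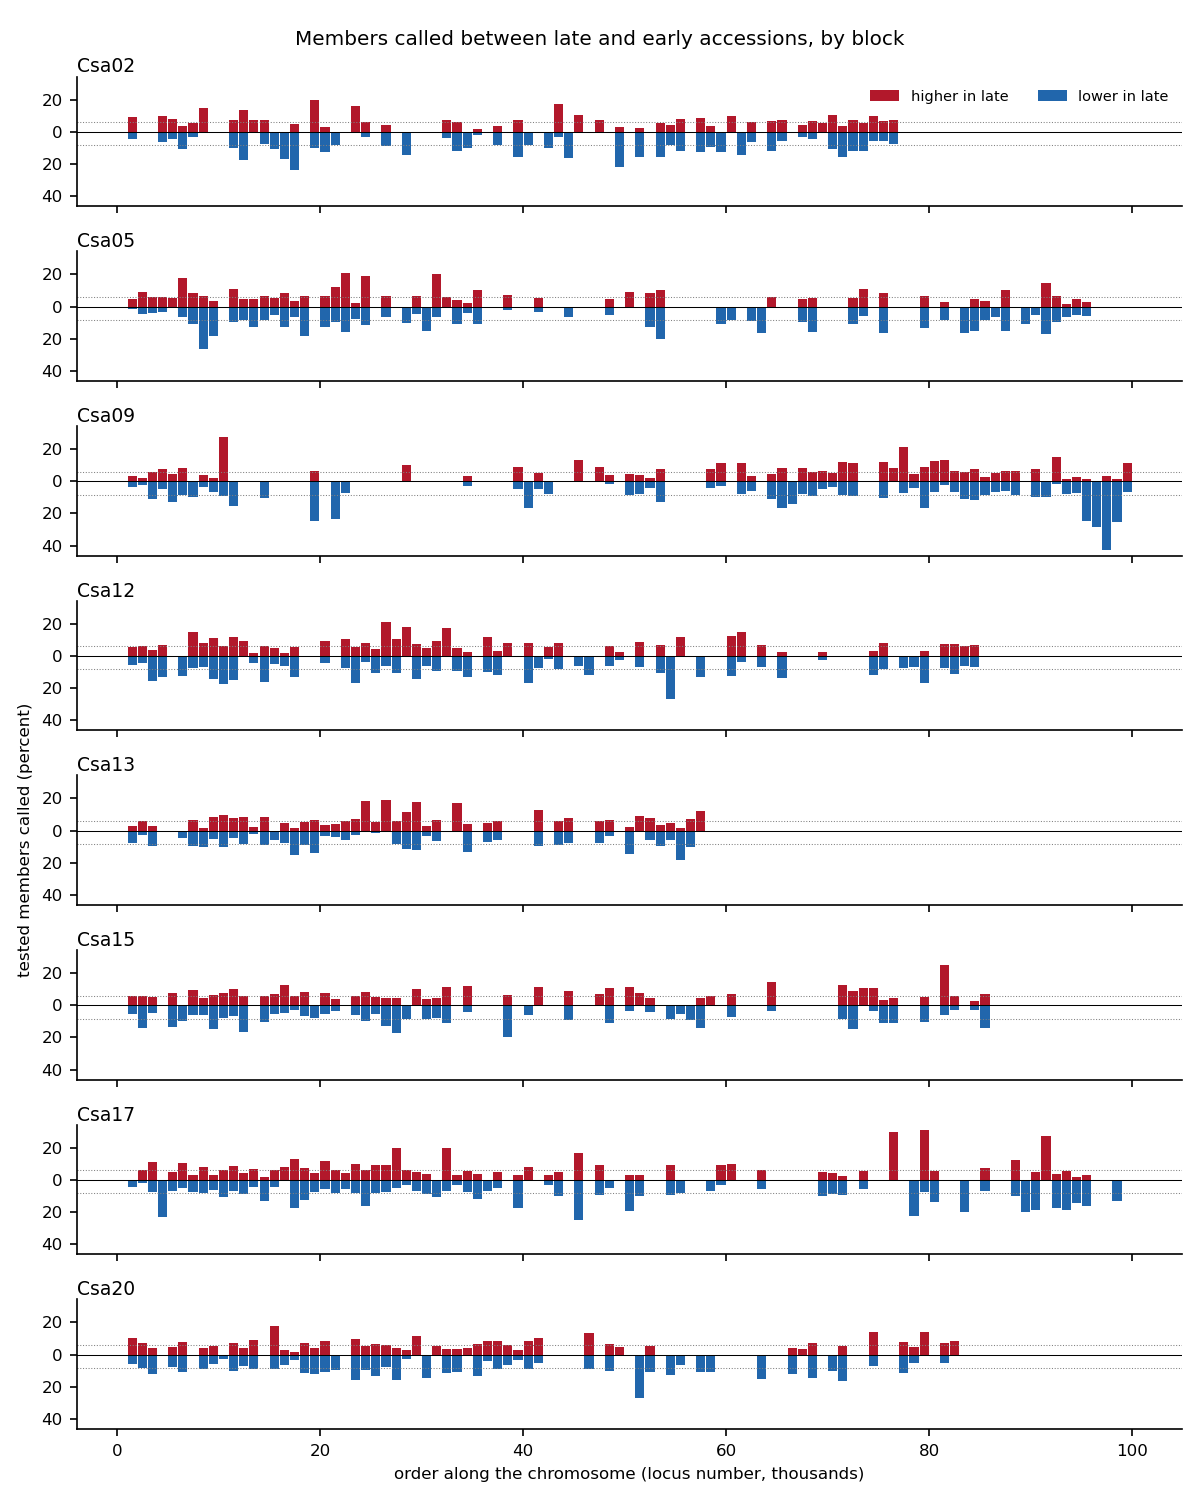
Percent of tested members called higher (red, upward) and lower (blue, downward) in late accessions (y axis) in each block of 1000 ID units along the 8 chromosomes (x axis, locus number divided by 1000), with dotted lines at the percent called over all gene models tested, 6.0% higher and 8.28% lower. The longest bar is of 26 of 61 gene models lower in the block starting at 97000 near the end of Csa09.

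The end of Csa09 was low in CN113660 and CN113692 and not in the other late accessions. Over the gene models between 95000 and below 99000 with an early median of at least 5 CPM, the median log2 deviation from the early median was −0.97 in CN113660 (0.511 of the early level) and −0.77 in CN113692. In CN113662 and CN113691 it was −0.03 and −0.08, and in the 44 early accessions it ran from −0.07 to 0.07. In CN113660 all 3 libraries were low (−0.90 to −0.98), and 55 gene models lay at least 2-fold below the early median. In CN113692 library Cs007 was low (−0.89) and library Cs008, with 646716 counts, was not (−0.02). The stretch was chosen after its values were seen and has no test of its own. It held 230 tested gene models, of which 70 were called lower and 4 higher, and without it the members called were 1202 higher and 1648 lower.

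Csa09g097220.1, the gene of smallest p there, lay at 42.7, 11.4, 38.2 and 13.6 CPM in late accessions and at 53.2 to 98.5 CPM (median 77.9) in early ones. All 4 late values lay below the early range, with CN113692 and CN113660 far lower than the others (log2 fold change −1.53, SE 0.18, adjusted p = 5.9e-08). Csa09g097200.1 nearly vanished in that pair, at 6.72, 0.599, 6.47 and 0.417 CPM against 9.43 to 17.5 CPM (median 13.1), a log2 fold change of −1.80 (SE 0.28, adjusted p = 1.1e-05). Csa09g097250.1 lay at 12.2, 2.80, 12 and 5.91 CPM against 14 to 24.3 CPM (median 18.8), a log2 fold change of −1.14 (SE 0.15, adjusted p = 8.5e-07). Csa09g097070.1 and Csa09g097710.1 were also called, with log2 fold changes of −0.83 and −0.40 (adjusted p = 0.00046 and 0.00042), and CN113662 lay inside the early range for both. The abundant Csa09g095470.1, described above, lies at the start of the same stretch and was likewise lowest in CN113692 and CN113660.

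On the other chromosomes the blocks described are those with the largest number of calls. By percent called, other blocks with fewer tested gene models lay higher, up to 31% on Csa02 (from 12000, 9 of 29) and 31.2% on Csa15 (from 81000, 5 of 16). Of the blocks described, those on Csa13, Csa15 and Csa17 lay below the 90th percentile of all blocks in percent called (22.7%). By this measure they did not stand out. Those on Csa02, Csa05, Csa12 and Csa20 lay above it. On Csa02 the largest number was in the block at 49000 (16 of 64 tested, 14 of them lower). There Csa02g049470.1 lay at 19, 17, 18 and 11.3 CPM against 23.3 to 47.5 CPM, with no overlap (log2 fold change −1.05, SE 0.14, adjusted p = 7.5e-07). On Csa05 the block at 6000 (15 of 61) was the one with mainly rises, 11 of them. Csa05g006880.1 lay at 3.73, 16.2, 4.57 and 12.7 CPM against 0.707 to 3.18 CPM (median 1.68), and Csa05g006740.1 at 30, 33.2, 19.3 and 18.3 CPM against 2.26 to 15.2 CPM (median 7.28). For neither did the groups overlap (log2 fold changes 2.42 and 1.72, SE 0.21 and 0.22, adjusted p = 1.1e-11 and 4.7e-07). Csa05g006790.1 rose too, to 59.9, 82.7, 23.7 and 18.3 CPM from a median of 10 CPM, but overlapped (log2 fold change 2.03, adjusted p = 8.8e-06).

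On Csa12 it was the block at 9000 (18 of 70). Csa12g009950.1 lay at 60.8, 45.5, 63.7 and 55.1 CPM against 78.1 to 153 CPM (median 113.8), with no overlap and a log2 fold change of −1.04 (SE 0.14, adjusted p = 4.7e-07). On Csa13 it was the block at 10000 (16 of 80), where Csa13g010700.1 lay at 47.0, 38.2, 45.0 and 45.4 CPM against 53.7 to 81.3 CPM (median 67.3). That is a modest fall, with late accessions close together and below every early one (log2 fold change −0.61, SE 0.08, adjusted p = 4.7e-07). The block at 9000 on Csa15 (17 of 80) held Csa15g009820.1, whose groups did not overlap (log2 fold change −0.51, adjusted p = 0.00061).

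On Csa17 the block at 24000 (14 of 62) held Csa17g024550.1, with a log2 fold change of −0.65 (adjusted p = 8.2e-05). On Csa20 the block at 23000 (16 of 63) held Csa20g023860.1, which lay at 1.57, 1.60, 1.22 and 1.39 CPM against 1.94 to 5.27 CPM without overlap (log2 fold change −1.31, SE 0.22, adjusted p = 5.2e-05). In the same block Csa20g023570.1 lay at 6.57 and 8.59 CPM in CN113662 and CN113692 and at 0.152 and 0 CPM in CN113691 and CN113660, against 6.75 to 18.7 CPM in early accessions (log2 fold change −1.76, SE 0.41, adjusted p = 0.0032). Without Cs040 and S001C2D, CN113662 lay at 1.41 CPM, below the early range, and the log2 fold change was −2.61, so the level of CN113662 there rests on Cs040.

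Blocks in which 1 or more accessions stood apart were also found among early accessions. Over 507 blocks of at least 5 gene models and 48 accessions, 71 of 24336 block medians lay beyond 0.5 on the log2 scale from the early median, 42 lower and 29 higher. Several blocks had more than 1 accession beyond that cut, and some of them held only 5 gene models. They fell in 30 blocks and 28 accessions. Of these values, 20 were of the 4 late accessions and 51 of the 44 early ones. Per accession they were thus more frequent in late accessions. The early median places early accessions nearer to it by construction. The 1st and 99th percentiles of all block medians were −0.27 and 0.26.

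**Figure D5:**
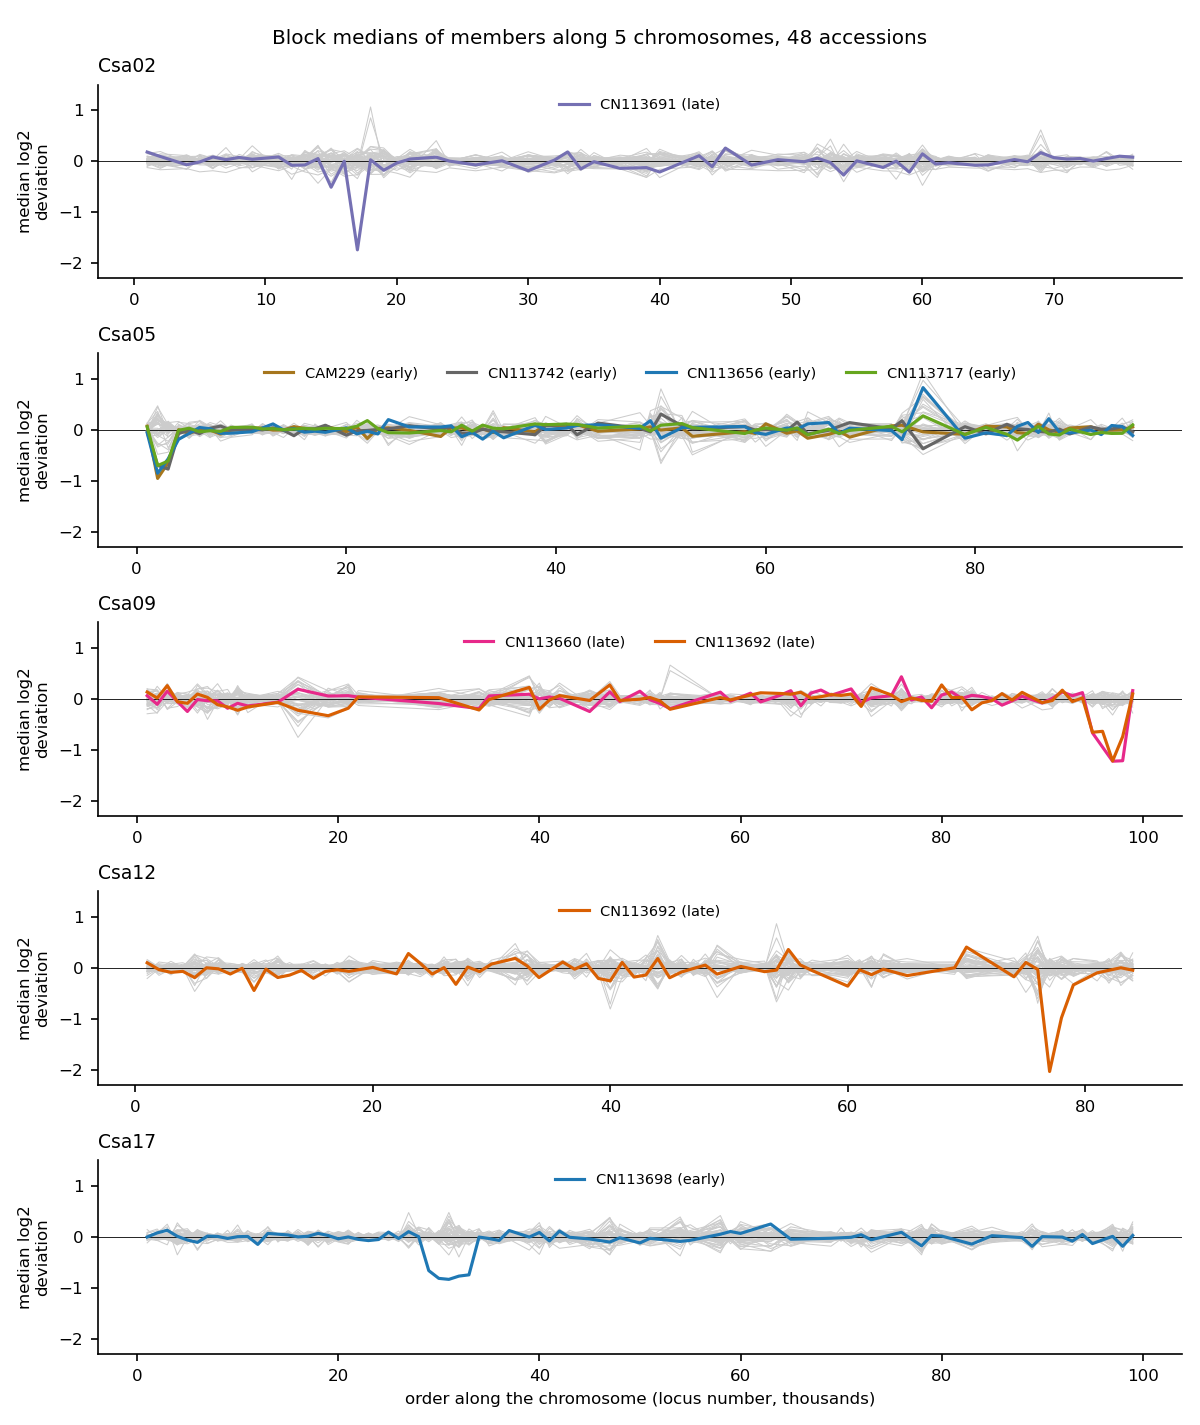
Median log2 deviation from the early median (y axis) of each block of 1000 ID units along 5 of the chromosomes (x axis, locus number divided by 1000), 1 line per accession, with those named in the legends in colour and the rest of the 48 in grey. The end of Csa09 is low in CN113660 and CN113692, and the start of Csa05 is low in 4 early accessions.

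Some of these stretches lay far lower in a single late accession than in any other accession. On Csa12 between 77000 and below 79000, 19 gene models had a median of −1.19 in CN113692. Both of its libraries were low (−1.19 and −1.20), and the lowest early value was −0.15. CN113660 (−0.23) also lay below the early range there, while CN113662 (−0.01) and CN113691 (0.06) lay inside it. On Csa02 between 17000 and below 18000, 16 gene models had a median of −1.74 in CN113691. Its libraries ran from −2.15 to −1.0, and the lowest early value was −0.28. CN113692 (−0.35) also lay below the early range there, while CN113662 (−0.27) and CN113660 (−0.08) lay inside it. Other stretches were of early accessions only. On Csa05 between 2000 and below 4000, 76 gene models lay low in CAM229 (−0.82), CN113742 (−0.75), CN113656 (−0.66) and CN113717 (−0.64), in all 3 libraries of each that had at least 200000 counts (−0.57 to −0.84), while late accessions lay between −0.01 and 0.13. Library S001C59 of CAM229 was among those closest to another accession, namely to Cs066 of CN113717. On Csa17 between 29000 and below 34000, 81 gene models lay at −0.75 in CN113698, where libraries S001363 and S001C2E were low (−1.50 and −1.46) and S00136C was not (−0.04). These stretches were chosen after their values were seen, and what underlies them was not tested.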

How the data were processed

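RNA-seq counts of leaves from 48 accessions (158 libraries) were used. Per the labels the authors trimmed reads with Trimmomatic 0.32, aligned them with STAR 2.7.10a and counted them with featureCounts 2.0.1, and the deposited values are raw counts per gene model. The genome build and the strand setting are not given in the sources used here. Counts were summed per accession, the unit of replication, and compared between 4 late and 44 early accessions with edgeR 4.0.16 (R 4.3.3; filterByExpr, TMM, quasi-likelihood test, Benjamini-Hochberg over all 52307 gene models tested). CPM are TMM-scaled. Shares were compared with two-sided exact permutation tests over accessions (194580 splits). P-values measure the spread between accessions.

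Levels of chromosomes and blocks are medians, over gene models with an early median of at least 5 CPM, of log2(CPM + 0.5) minus that of the early median, centred per library or accession. ID numbers were taken to rise along a chromosome. Named genes were, by rule, the 10 largest rises and falls among called members whose 4 late accessions lay on one side of the early mean, the called members of smallest p in the most-called block of each chromosome, every member the study annotates, the 10 with the most reads, and the 5 with the largest and the smallest spread. Members and lists were chosen with earlier results of these data known. On simulated counts with 100 genes changed 2-fold and 100 changed 4-fold, edgeR recovered 83% and 97% and called 16 unchanged genes among 51910. The changed genes had a mean of at least 5 CPM, so the recovery does not cover genes of lower level. Counts were drawn independently for each accession, without code series or relatedness between accessions. Alternatives tried were other libraries, code series, normalization, filter, tool (DESeq2 1.42.0), member set and each late accession left out. One library without a flowering time in its labels entered no comparison.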

Additional observations from a re-analysis of the deposited data

Results flagged for a closer look

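In 68 groups of 4 late values, 7 held an accession whose distance to its nearest neighbour took more of the group's range than Dixon's 95% limit allows. Chance gives about 1 such group in 20 for values that follow a normal distribution, which counts near 0 do not. CN113662 was the distant one for Csa15g031020.1 (0.747 CPM), Csa17g083100.1 (0.971 CPM), Csa12g003940.1 (0.747 CPM) and Csa12g086700.1 (1.12 CPM), which are largest falls, and for the abundant Csa05g079910.1 (4423 CPM, below the other 3). For the 4 falls the value moves with library Cs040. CN113691 was distant for Csa02g044720.1 (0.0761 CPM, the others at 0), and CN113660 for Csa12g084210.1 (3283 CPM, above the other 3). Where the others are at 0, any read in the remaining accession is flagged, so the flag of Csa02g044720.1 carries no information. The same holds for Csa17g083100.1 and Csa12g003940.1.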

How the results depend on the processing

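The difference in read share of 0.215 points stayed positive throughout but missed 0.05 with the mean of library shares (0.179, p = 0.082), without Csa13 (0.096, p = 0.31), with unplaced scaffolds left out of the total (0.182, p = 0.074) and, in settings chosen after seeing the data, without the 24 libraries closest to another accession (0.201, p = 0.064) and without Cs040 and S001C2D (0.207, p = 0.052). Leaving out 1 late accession gave 0.044 (without CN113692) to 0.331 (without CN113691), and it also missed 0.05 without CN113660 (0.205, p = 0.086). Within the series Cs the differences on Csa02 and Csa20 changed sign (0.033 and 0.0041). The difference in share expressed changed sign within the series Cs (−2.68), where late accessions had more libraries each than most early ones. It also changed sign at a CPM of at least 1 (−0.132) and after thinning (−0.010), and it was 6.82 (p = 0.15) with all libraries. Members called higher and lower numbered 632 and 669 within the series Cs, and 589 to 970 and 886 to 1545 without 1 late accession (754 and 917 without CN113660, 1128 lower without CN113691). Tools, normalization, filter and the other settings left both counts within 1.5 times, but the members called were not always the same. With each accession's share of Cs counts as a covariate, 1113 members were called higher and 1604 lower. Of these, 642 and 1222 had also been called without it. Without the 24 libraries closest to another accession, 1320 and 1686 were called, and 943 and 1394 of these had been called with them. Without the 4 libraries with a shifted chromosome, chosen after seeing the data, the counts were 1289 and 1508. The cause of these changes was not tested. No paired analysis was possible because the labels give no replicate numbers that groups share. Limits are the 4 late accessions, all of series Cs, the low depth of CN113692, and homoeologous copies that can share reads.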

Other observations

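One library, S001C39 of Licalla, has no flowering time in its labels. It had 8286624 counts, of which 40.5% fell on the 8 chromosomes, and 22155 members had at least 1 read.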
